A study of Bos taurus and Felis catus with 14 samples.

Results

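The microRNAs described here are the hairpins of the families mir-33, mir-103 and mir-107 in cow and cat. They were taken by name from the predicted precursors of both species. A locus counted when its name held the whole family number, with any letter, copy number or suffix. Names marked as antisense were left out. This gave 10 of 1305 predicted loci, 5 of 810 in cow and 5 of 495 in cat. The sets were called by miRWoods, a program that scores stacks of small RNA reads and the hairpins around them, on small RNA libraries from 10 tissues of Angus steers (retina, iris, optic nerve, brain stem, penis, bone marrow, submandibular lymph node, oral papillae, corium and dental pulp, 1 library each) and from skin and muscle of neutered male domestic short hair cats (2 libraries each). The steers numbered 3, and 8 of the bovine libraries came from steer 1, brain stem from steer 2 and corium from steer 3. The 4 feline libraries came from 3 cats, aged at least 10 years per the paper. No treatment or allele separated the animals.

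Each species has 1 call set over all its libraries, so a locus has a position, a strand, a name and its mature products, and no value per tissue or animal. The score field of the sets is blank, and they hold no read numbers. The study tabulated read counts in its supplement, of which a shortened copy was at hand, and these were not used here. The depth behind each locus, expression and the markers of the labelled tissues were therefore not analysed here. Values below are positions and lengths, with no replicate and no test. No tissue was sampled in both species, so a difference between cow and cat cannot be told apart from one between tissues. An interval beside a percentage is a 95% exact (Clopper-Pearson) interval for counting error alone, and other percentages are given without one.

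The 3 families are known as microRNAs of lipid and glucose metabolism that lie within introns of metabolic genes. In other mammals, mir-33 is transcribed with the sterol regulatory genes SREBF2 and SREBF1 and represses ABCA1, the transporter that exports cholesterol from cells. The mir-103 and mir-107 hairpins lie in genes of pantothenate kinases (PANK), which start the synthesis of coenzyme A, and their products lower insulin sensitivity in liver and fat. A hairpin can release a mature product from its 5′ side, called 5p, and from its 3′ side, called 3p. In mir-33 the 5p product is the known regulator, and in mir-103 and mir-107 it is the 3p product.

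In cow, all 5 loci had plain names, and each lay on a chromosome of its own. The mir-33 hairpins were bta-mir-33a on chromosome 5 from 113410754 to 113410818 and bta-mir-33b on chromosome 19 from 35249065 to 35249126, both on the plus strand. The mir-103 copies were bta-mir-103-1 on chromosome 20 from 189849 to 189940 and bta-mir-103-2 on chromosome 13 from 51742410 to 51742507. The mir-107 hairpin was bta-mir-107 on chromosome 26 from 11287986 to 11288083. These last 3 loci were on the minus strand. Positions are those deposited, counted from 1, and no source used here names their genome build.

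In cat, the same families had the same numbers of loci, 2 for mir-33, 2 for mir-103 and 1 for mir-107, again on separate sequences. Of these, fca-mir-33 (NC_018729.2, 135265456 to 135265522) and fca-mir-103 (chromosome A3, 30588101 to 30588170) had plain names. The other loci carried the family name with a suffix for predictions outside the annotated set. Loci with this suffix are called further members here, which does not mean additional copies. The plots show their names in full, and the text calls these loci by family and sequence. They were a mir-33 locus on chromosome E1 from 11620745 to 11620808, a mir-103 locus on NC_018723.2 from 180994129 to 180994197 and a mir-107 locus on NC_018733.2 from 50454849 to 50454952. The last lay on the minus strand and the other 4 on the plus strand. Further members were thus 3 of 5 in cat and 0 of 5 in cow, beside 18.2% of all feline loci (interval 14.9 to 21.9%) and 11.1% of all bovine loci (interval 9.03 to 13.5%). For its clusters the study took the database miRBase as the annotated set for cow, and the predictions of an earlier study for cat. The counts of further members in cow and cat may therefore rest on unlike annotations. In cat no locus of mir-107 had a plain name. By the methods of the study, such names come from a match of a mature product to a known microRNA with the same seed, bases 2 to 8 of the product, so the family of these loci is not independent of their sequence.

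The label of intronic microRNAs was checked in cow by name against the RefSeq genes of ARS-UCD2.0, an assembly that may differ from that of the files, using its positions only for which gene contains which. All 5 bovine names matched 1 microRNA gene there, on the chromosome of the deposited locus. MIR33A lay inside SREBF2, which drives cholesterol synthesis, and MIR33B inside SREBF1, which drives fatty acid synthesis. MIR107 lay inside PANK1, MIR103-2 inside PANK2 and MIR103-1 inside PANK3. Each had 1 protein-coding gene around it, and none of the 5 host genes held another microRNA gene. The remaining gene of the PANK family, PANK4, looked up after these values were seen, held none. Lying inside a protein-coding gene is common in the set, since 244 of 409 matched bovine loci with a plain name did so (59.7%, interval 54.7 to 64.4%), members included. The table gives no exons and no strand, so whether the hairpins are intronic and run with their hosts was not analysed here. Feline host genes were not analysed here.

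Which feline locus stands opposite which bovine copy was read from the company of other microRNAs, a rule chosen after the sets were seen. For each combination within a family, the microRNA families named on both sequences were counted, leaving out the members themselves. The chromosome of bta-mir-33b shared 18 families with that of the E1 locus and 1, mir-196, with the sequence of fca-mir-33. For bta-mir-33a it was the reverse, with 9 families shared with fca-mir-33 and 1, again mir-196, with the E1 locus of mir-33. The chromosome of bta-mir-103-2 shared 5 families with that of fca-mir-103 and 0 with that of the mir-103 locus on NC_018723.2. That of bta-mir-103-1 shared 3 with that of the mir-103 locus on NC_018723.2 and 0 with that of fca-mir-103. The mir-107 loci, the only ones of their family in each set, shared 4. The feline copies with a plain family name and no letter or number therefore stood opposite bta-mir-33a and bta-mir-103-2, and the further members opposite bta-mir-33b, bta-mir-103-1 and bta-mir-107.

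The distances and strands of these neighbours were compared over all 39 shared families, with the nearest locus of each family in each species. The 2 distances lay within 1.5 times of each other for 12 of the 39, and the strand relative to the member was the same in both species for 18. The limit of 1.5 times was set after the values were seen. For mir-107, all 4 shared families met both. Its neighbour mir-146b lay 11.6 Mb away in cow and 10.5 Mb in cat on the opposite strand, and mir-1307 lay 12.9 and 11.3 Mb away on the same strand. For mir-103-1, 1 of 3 distances was within the limit and all 3 strands were the same. The nearest locus to bta-mir-103-1 was bta-mir-218-2, 254 kb away on the same strand, and the nearest to the mir-103 locus on NC_018723.2 was fca-mir-218-2, 191 kb away and also on the same strand. The other families of that copy were farther off in cat, mir-582 at 53.0 Mb against 19.4 Mb and mir-449 at 57.1 Mb against 23.8 Mb.

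The remaining copies were mixed. For mir-33a, 3 of 9 distances were within the limit and 3 of 9 strands were the same. There mir-1249 lay 2.94 Mb away in cow and 2.64 Mb in cat on the opposite strand, and a let-7a hairpin 3.71 and 3.44 Mb away on the same strand, while mir-200c lay 9.55 Mb away in cow and 93.3 Mb in cat and mir-331 lay 88.3 and 18.5 Mb away. For mir-33b, 4 of 18 distances were within the limit and 7 of 18 strands were the same. Its neighbours mir-744 (3.92 and 5.52 Mb), mir-324 (7.68 and 9.48 Mb), mir-195 and mir-497 (each 7.81 and 9.62 Mb) met both, whereas mir-10a was 3.30 Mb away in cow and 24.8 Mb in cat and mir-132 was 11.6 and 3.08 Mb away. For mir-103-2, 0 of 5 distances were within the limit and 1 of 5 strands was the same. The mir-1388 hairpin lay 2.63 Mb from bta-mir-103-2 on the opposite strand and 30.1 Mb from fca-mir-103 on the same strand. The muscle microRNA mir-1 was 3.50 Mb away in cow and 29.1 Mb in cat, and mir-499 was 13.2 and 6.32 Mb away.

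All 10 hairpins stood alone. None lay in a cluster, a group of loci with gaps of at most 10 kb on either strand, beside 29.0% of all bovine loci (interval 25.9 to 32.3%) and 33.3% of all feline loci (interval 29.2 to 37.7%). The gap to the nearest predicted locus was 254 kb at bta-mir-103-1, 318 kb at bta-mir-33b (to bta-Novel72), 324 kb at bta-mir-107 (to bta-Novel43) and 402 kb at bta-mir-33a (to bta-Novel305). It was 2633 kb at bta-mir-103-2, where the neighbour was as-bta-mir-1388. In cat the gap was 191 kb at the mir-103 locus on NC_018723.2, 481 kb at the E1 locus of mir-33 (to fca-Novel95), 858 kb at the feline mir-107 locus (to fca-Novel66) and 1126 kb at fca-mir-33 (to fca-Novel165). The farthest was fca-mir-103, 6324 kb from fca-mir-499, which was on the other strand. The median gap was 324 kb over the bovine and 858 kb over the feline members. Over all loci with a neighbour on their sequence it was 315 kb in cow (810 loci) and 289 kb in cat (487 loci), so the bovine median was close to that of the whole set. Gaps at least as large as the smallest member gap of the species were held by 54.3% of bovine and 53.8% of feline loci.

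**Figure D1:**
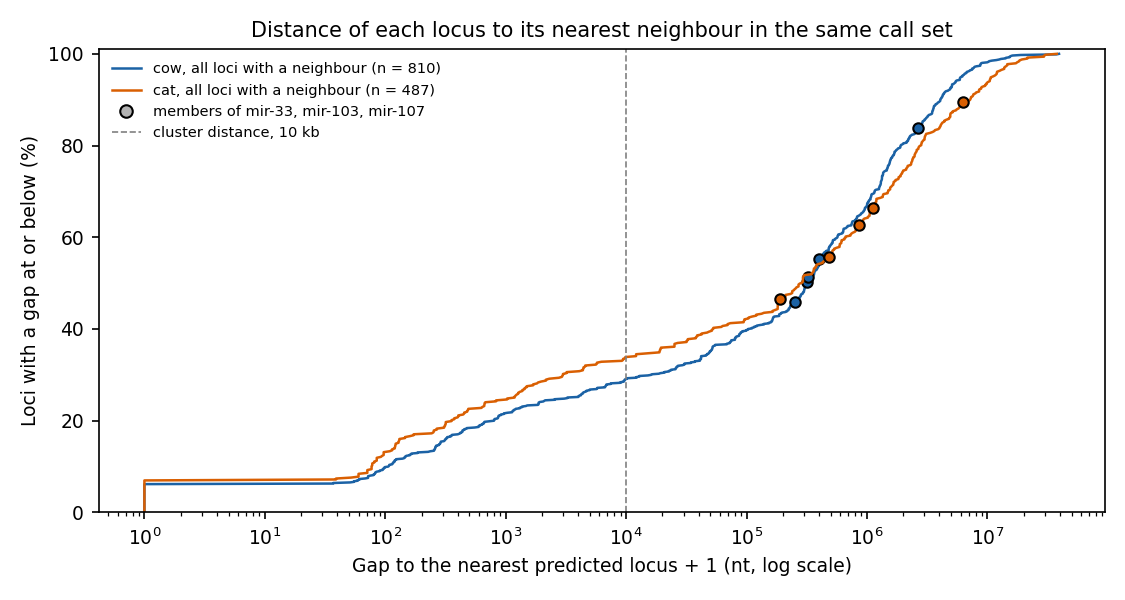
Share of loci (vertical axis, percent) with a gap to the nearest predicted locus at or below the value on the horizontal axis (nt, log scale), for 810 bovine and 487 feline loci with a neighbour; points are the 10 members. All members lie to the right of the dashed line at 10 kb, from 191 kb at the mir-103 locus on NC_018723.2 to 6324 kb at fca-mir-103.

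A hairpin can also be called on the strand opposite a known microRNA. In human, mir-103 has such an annotated opposite-strand hairpin, mir-103b. In these sets none of the 10 members overlapped a locus on the other strand by even 1 nt, and no antisense name held a family number of the members. Such overlaps were rare in general, at 6.17% of all bovine loci (interval 4.62 to 8.06%) and 6.87% of all feline loci (interval 4.80 to 9.47%), so 0 of 5 in a species is close to that background. A locus that was not called may still be transcribed.

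Products came from both arms at 9 of the 10 hairpins. The bovine count was 5 of 5, beside 72.5% of all bovine loci (interval 69.3 to 75.5%), and the feline count was 4 of 5, beside 65.7% (interval 61.3 to 69.8%). Among loci whose name holds a family number these shares were 81.5% and 81.6%. The exception was the mir-103 locus on NC_018723.2 opposite bta-mir-103-1, where the 3p product, from 180994172 to 180994194, was the sole product and the 43 bases before it held none. Its bovine counterpart had a 5p product, 23 nt long, at 189898 to 189920.

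**Figure D2:**
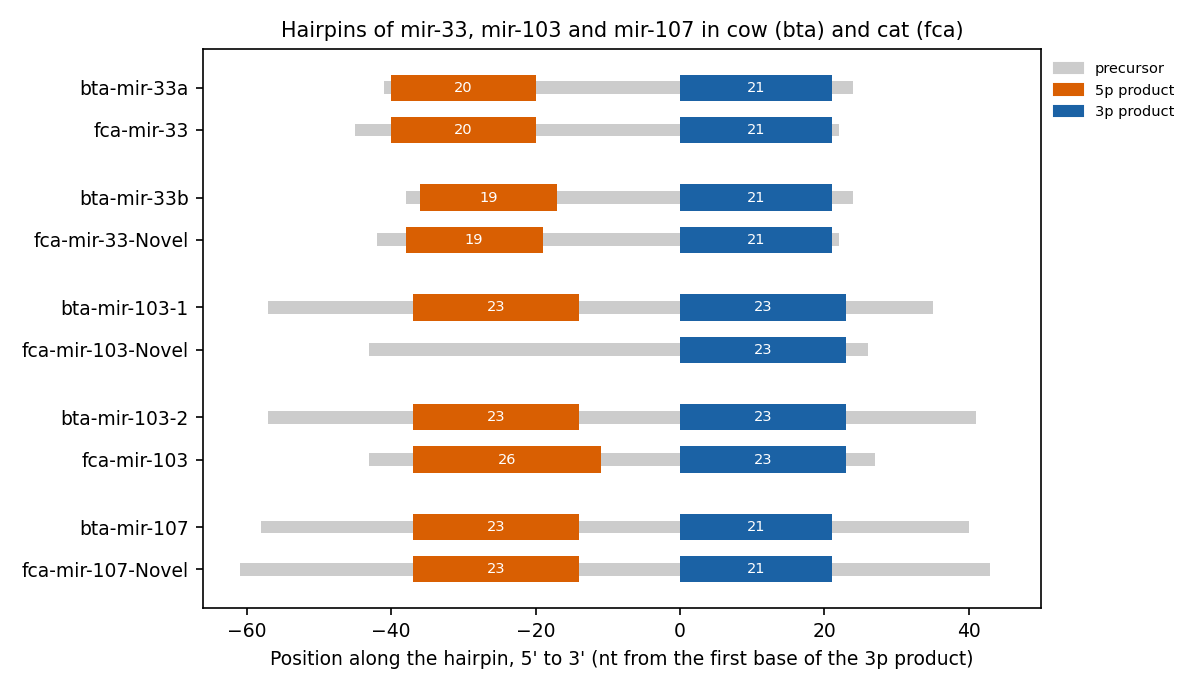
The 10 hairpins to scale, cow above cat for each copy, with position in nt from the first base of the 3p product on the horizontal axis. Grey bars are precursors, and orange and blue boxes are 5p and 3p products with their lengths in nt. The 5p products start 37 nt before the 3p product in the mir-103 and mir-107 hairpins that have both, and 36 to 40 nt before it in mir-33.

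The length of the 5p product of mir-33 followed the copy, and that of its 3p product was the same in both copies. In mir-33, the 5p product was 20 nt at bta-mir-33a (113410755 to 113410774) and 20 nt at fca-mir-33 (135265461 to 135265480). The 5p product of the other copy was 19 nt in both species, at bta-mir-33b (35249067 to 35249085) and the E1 locus of mir-33 (11620749 to 11620767). Both lengths lay below the median of 22 nt for 5p products in either set. A 5p product of 19 nt was infrequent: bta-mir-33b was among 8 of 661 in cow (1.21%), and that of the E1 locus was the only such product of 387 in cat (0.258%). The 3p products of mir-33 were 21 nt at all 4 loci, in cow at 113410795 to 113410815 and 35249103 to 35249123.

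The 3p product of mir-103, the known regulator of that family, was 23 nt at all 4 loci. It lay at 189861 to 189883 for bta-mir-103-1, at 51742428 to 51742450 for bta-mir-103-2 and at 30588144 to 30588166 for fca-mir-103. A 3p length of 23 nt was seen in 11.8% of 736 bovine and 11.1% of 433 feline 3p products. The 3p product of mir-107 was shorter, 21 nt at both bta-mir-107 (11288005 to 11288025) and the feline mir-107 locus (50454871 to 50454891), a length held by 184 of 736 bovine and 125 of 433 feline 3p products. By length, then, mir-103 and mir-107 differed by 2 nt in the same direction in both species. Copies with near-identical products can share reads. By the methods of the study, the count of a read is adjusted by how many positions it maps to. The mir-103 copies of a species are therefore not independent of each other, and the related mir-107 locus may not be independent of them. No sequences were used here, so whether the 3p lengths of mir-103 and mir-107 came from separate reads was not tested. Which reads these loci shared is not shown by the sets.

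The 5p products of mir-103 and mir-107 were 23 nt at all 3 bovine loci and at the feline mir-107 locus. At fca-mir-103 it was 26 nt (30588107 to 30588132). Lengths of 26 nt or more made up 1.03% of feline 5p products (4 of 387) and 0.454% of bovine ones (3 of 661). The first base of this product lay 37 nt before that of the 3p product, as at bta-mir-103-2, so the additional 3 nt were at its 3′ end, on the side of the loop.

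**Figure D3:**
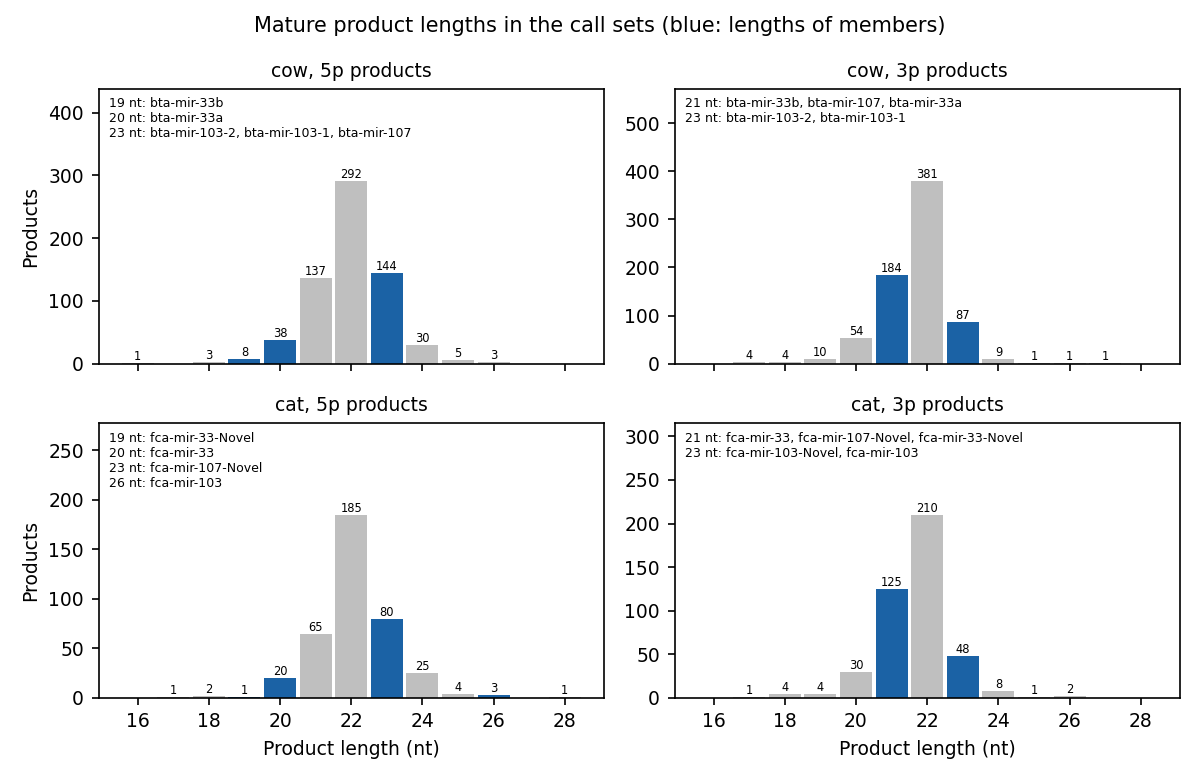
Number of mature products (vertical axis) by length in nt (horizontal axis), for 5p and 3p products of the bovine and feline call sets, with each bar's count above it. Blue bars are lengths that occur among the members named in each panel, from 19 nt at bta-mir-33b and the E1 locus of mir-33 to 26 nt at fca-mir-103.

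Set side by side, 8 of 9 products called in both species had the same length in cow and cat, and the 5p product opposite bta-mir-103-2 was the exception. The background here and below is loci paired by the same plain name, unique in each set. No member pair had such a name, and members were paired by shared families instead. Among these background loci, 215 of 284 products had equal lengths (75.7%, interval 70.3 to 80.6%). Lengths differed by at least 3 nt for 4 of 284 (1.41%, interval 0.385 to 3.57%). Equal lengths were therefore frequent beyond these families, while a difference of 3 nt, as at fca-mir-103, was not.

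The spacing of the products within a hairpin was taken from the first base of the 5p product to the first base of the 3p product. It was 37 nt at bta-mir-103-1, bta-mir-103-2, bta-mir-107, fca-mir-103 and the feline mir-107 locus, all 5 hairpins of these related families with both products. It was 40 nt at bta-mir-33a and at fca-mir-33. At bta-mir-33b it was 36 nt and at the E1 locus 38 nt, so this copy differed by 2 nt between species although its products were of the same lengths. Equal spacing in cow and cat was found for 3 of the 4 copies with both products in both species. Among hairpins paired by a shared plain name it was found for 102 of 130 (78.5%, interval 70.4 to 85.2%). None of these values was unusual for a hairpin. The median over all hairpins with both arms was 38 nt in each species, a spacing of 37 nt was held by 12.8% of 587 bovine and 15.4% of 325 feline hairpins, and 40 nt by 8.18% and 9.85%.

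The number of bases between the products separated the families more, but it is the spacing less the 5p length and no separate measure. It was 14 nt at bta-mir-103-1, bta-mir-103-2, bta-mir-107 and the feline mir-107 locus, and 11 nt at fca-mir-103, where the long 5p product reached into it. In mir-33 it was 20 nt at bta-mir-33a and fca-mir-33, 17 nt at bta-mir-33b and 19 nt at the E1 locus of mir-33. The median over all hairpins was 16 nt in both species, so mir-103 and mir-107 lay below it and mir-33 above it in cow and cat. By this measure 2 of 4 copies were equal between species, beside 60.8% of hairpins paired by a shared plain name (interval 51.8 to 69.2%).

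**Figure D4:**
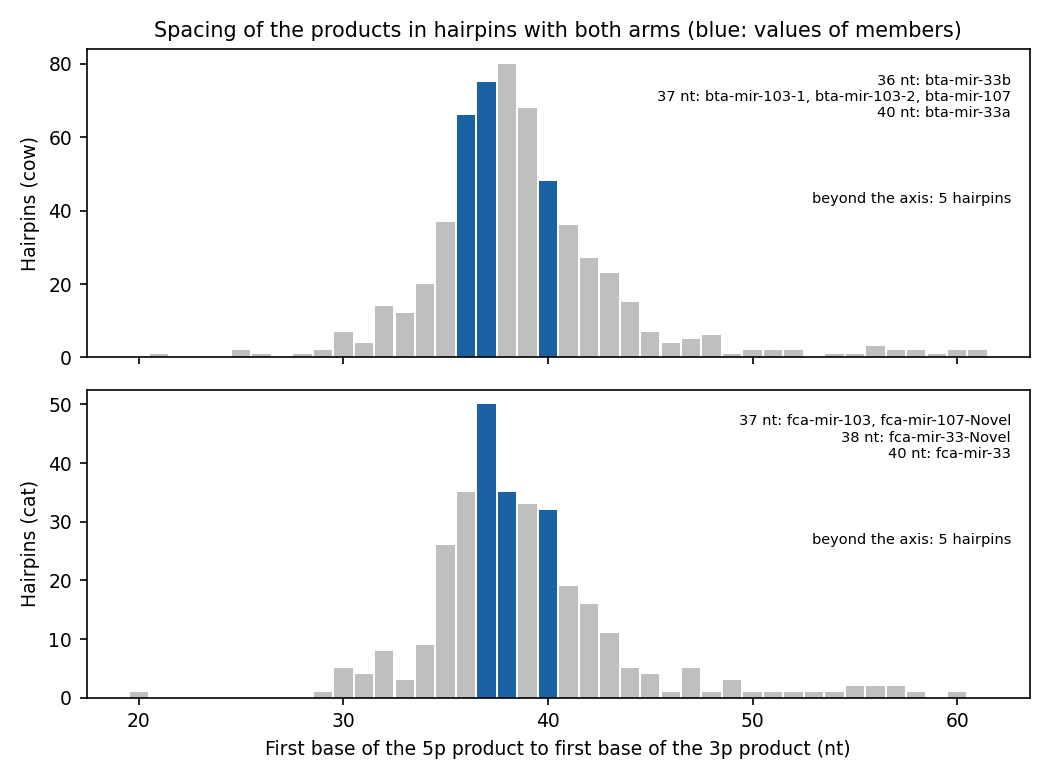
Number of hairpins with both arms (vertical axis) by the distance in nt from the first base of the 5p product to the first base of the 3p product (horizontal axis), in cow above and cat below. Blue bars are the values held by members, 36, 37 and 40 nt in cow and 37, 38 and 40 nt in cat, near the median of 38 nt.

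Precursor lengths parted the families in cow. The mir-33 precursors were 65 nt at bta-mir-33a and 62 nt at bta-mir-33b, longer than 41.7% and 18.3% of bovine loci. The others were 92 nt at bta-mir-103-1 and 98 nt at both bta-mir-103-2 and bta-mir-107, where the median over all bovine loci was 66 nt and 92.7% of loci were shorter than 98 nt. In cat, fca-mir-33 had 67 nt and the E1 locus of mir-33 64 nt, near the median of 65 nt. With 70 nt, fca-mir-103 was longer than 73.7% of feline loci. The mir-103 locus on NC_018723.2, with 69 nt, was longer than 70.1%. The longest was the feline mir-107 locus with 104 nt, longer than 97.4% of feline loci.

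The longer precursors had longer flanks outside the products, and the products themselves took up a similar stretch. From the first base of the 5p product to the last base of the 3p product there were 60 nt in both bovine mir-103 hairpins and in fca-mir-103, and 58 nt in mir-107 of both species. For mir-33 this stretch was 61 nt at bta-mir-33a and fca-mir-33, 57 nt at bta-mir-33b and 59 nt at the E1 locus of mir-33. Before the 5p product lay 20 bases in each bovine mir-103 precursor, 21 in bta-mir-107 and 24 in the feline mir-107 locus, against 6 in fca-mir-103. The mir-33 precursors had 1 base there at bta-mir-33a, 2 at bta-mir-33b, 4 at the E1 locus of mir-33 and 5 at fca-mir-33, beside a median of 2 bases in both sets. At least 20 bases preceded the 5p product in 11.9% of bovine and 8.31% of feline hairpins. After the 3p product there were 12 bases at bta-mir-103-1, 18 at bta-mir-103-2, 19 at bta-mir-107 and 22 at the feline mir-107 locus, and 1 to 4 at the remaining 6 loci.

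No precursor length was equal between a bovine copy and its feline counterpart. Among loci paired by a shared plain name, 57 of 154 had equal lengths (37.0%, interval 29.4 to 45.2%). The feline precursor was 2 nt longer for each mir-33 copy and 6 nt longer for mir-107. For the mir-103 copies it was 92 nt in cow against 69 nt in cat opposite bta-mir-103-1, and 98 nt against 70 nt opposite bta-mir-103-2. By the methods of the study, a precursor span is set either by the best duplex of the main product with its surroundings or by the other products nearby, and which of these was used at a locus is not recorded in the sets.

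Related families were called in most cases. Of the 7 families of the group that shares part of its seed with mir-103 and mir-107 (mir-15, mir-16, mir-195, mir-424, mir-497, mir-503 and mir-646), known for control of cell growth, 6 had a locus in each species and mir-646 had none in either. They numbered 8 loci in cow, all with both arms, and 10 in cat, 9 of them with both arms. The share with both arms among loci with a family number was 81.5% in cow and 81.6% in cat. The additional feline loci were further members of mir-15 and of mir-16, 1 each. Like the mir-103 locus on NC_018723.2, fca-mir-497 had a product from a single arm in cat.

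Of 15 other families linked to lipid or glucose metabolism, 14 had a locus in cow and 15 in cat, with 37 and 41 loci. The family without a bovine locus was mir-122, the main microRNA of liver. Counts differed between the sets for mir-378 (2 in cow, 6 in cat), mir-148 (3 and 2), mir-34 (3 and 2) and mir-30 (6 and 7), in addition to mir-122 (0 and 1). Of the 6 feline mir-378 loci, 5 were further members and 1 had products on both arms. The bovine set came from 10 tissues and the feline set from skin and muscle, so these counts do not separate species from tissue. Further members were 2 of the 37 bovine and 13 of the 41 feline loci, beside 11.1% of all bovine and 18.2% of all feline loci. As above, these names may rest on unlike annotations. Both arms gave a product at 36 (97.3%) and 33 (80.5%), beside 81.5% and 81.6% of loci with a family number. The feline share was thus close to that background.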

How the data were processed

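RNA was extracted from 10 bovine and 4 feline samples, and small RNA libraries were sequenced. Per the labels the authors used cutadapt 1.15, Bowtie 1.2.11 and SAMtools; per the paper's methods, reads with more than 10 genome positions were dropped, a PHRED quality filter was applied, and miRWoods called precursors and products over all libraries of a species. The authors deposited genomic starts and ends with strand and name. No genome or sequence table was used here, so mature sequences and seeds were not analysed.

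Positions were read as deposited. Lengths, offsets from the precursor's 5′ end, gaps between spans and overlaps of at least 1 nt were computed with Python 3.11.15, numpy 2.4.6 and scipy 1.17.1, and figures with matplotlib 3.10.9. The functions were tested on simulated data and recovered all 50 sets. Clusters used gaps of at most 10 kb, from the paper's methods. In the RefSeq table, 409 of 412 plain bovine names with a family number matched 1 microRNA gene. No test was run, since there is 1 call set per species. The members and lists were chosen with earlier results of these data known. The text names all members and their products, opposite-strand partners, nearest loci, host genes and, of the other lists, families without a locus or with counts that differ between species. Alternatives varied the names counted, the background, how the arm was read, the overlap, the cluster distance and strand, and the measures of length and spacing.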

Additional observations from a re-analysis of the deposited data

How the results depend on the processing

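The deposited sets hold no read numbers and the read counts of the supplement, at hand in a shortened copy, were not used, so depth was not weighed here, and a locus that was not called may still be expressed. No paired analysis was possible because each species has 1 call set over all its libraries and no result comes from a test. For the same reason no library could be left out. Spacing in RefSeq hairpins was not run, since no hairpin sequences were used. With plain names only, cat had 2 members. Among loci with a family number, both arms gave products at 81.5% in cow and 81.6% in cat. The share of all loci in clusters was 21.6% in cow and 24.0% in cat at 1 kb, 35.1% and 38.8% at 50 kb, and 23.1% and 27.7% on the same strand alone. No member lay in a cluster under any of these. Measured as the span of the products, the median length of the bovine members was 60 nt instead of 92 nt, since flanks are then left out. Without bta-mir-103-1 and its feline copy (added after seeing the data) 7 of 8 products had equal lengths. The arm read from position, names marked as antisense, the stricter overlap and means in place of medians changed no count of members and moved no value beyond its interval or spread.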
